A study of Mus musculus with 4 samples.

Results

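The angiogenin ribonucleases examined here are Ang, Ang2, Ang4 and Rnase4, secreted enzymes of the ribonuclease A superfamily. Their members were found as every probe that is not a control and carries one of these gene names on the array, which gave 4 genes of 22443 named genes, each read by 1 of 39423 probes. The group was selected on the signal of Ang2, which was lower in both pools of mice given azoxymethane (AOM), so the AOM comparisons describe the choice and carry no test. RNA of the descending colon, whole and without separation of cell types, was pooled from 3 to 5 mice for each of 4 groups and measured on 1 array per group, all of them one-color Agilent arrays for the mouse genome on a single slide.

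All mice were 42-week-old males on the mixed strain B6.129 (n3), that is, Pla2g3 heterozygotes backcrossed to C57BL/6 for 3 generations and intercrossed to give littermates. Pla2g3 encodes a secreted phospholipase A2, and the 4 pools were Pla2g3+/+ with vehicle (saline), Pla2g3-/- with vehicle, Pla2g3+/+ with AOM and Pla2g3-/- with AOM. Weekly injections of AOM, a colon carcinogen, were given 6 times at 10 mg/kg, and the colon was taken 28 weeks after the last injection. Tumor tissue and surrounding colon were not separated in the labels. In RNA of whole tissue, fewer cells of a type and less RNA per cell cannot be told apart. Because each group was a single array, no p-value was computed for any comparison.

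Some signals bear on how the labels and the tissue of the pools are read. The signal of Pla2g3 itself went against the genotype labels: on its 3 probes the pool labeled Pla2g3-/- was 1.06-fold, 1.23-fold and at least 2.31-fold higher than Pla2g3+/+ with vehicle, and 6.66-fold, 6.01-fold and 2.76-fold higher after AOM. Whether these probes lie in the deleted part was not given, so directions below follow the labels. The colon tumor Wnt targets are not markers of genotype and do not check the labels. With AOM, 10 of 10 of them were higher by more than 2-fold in Pla2g3+/+. In the pools labeled Pla2g3-/-, 1 of 9 was higher and 2 lower. Signals of 12 pancreatic acinar genes summed to 48.4 times the array's 75th percentile in the vehicle pool labeled Pla2g3-/-, against 0.445 in Pla2g3+/+ with vehicle, 4.49 in Pla2g3+/+ with AOM, of which Pnliprp1 alone made 4.35, and 0.275 in the AOM pool labeled Pla2g3-/-. Of 8 hepatocyte genes, 6 were more than 2-fold higher in the vehicle pool labeled Pla2g3-/- than in Pla2g3+/+ with vehicle (median log2 ratio 2.77), and Alb, serum albumin, was at 0.0251 and 0.666 in the vehicle pools, 2.13 in Pla2g3+/+ with AOM and not well above background in the AOM pool labeled Pla2g3-/-. Krt5, a keratin of squamous epithelium, was at 15.3 in the AOM pool labeled Pla2g3-/- and between 0.0266 and 0.0561 in the other pools. Of the 8 genes of its list, 2 (Krt1 and Ivl) were not well above background in any pool, and between the AOM pools Krt5 was the 1 higher and Sprr1a the 1 lower by more than 2-fold. With AOM against vehicle, 3 of the 6 with a ratio were higher and 1 lower in the pools labeled Pla2g3-/-. In Pla2g3+/+ the counts were 1 and 2. Krt14, another keratin of the list, was at 0.112 and 0.0686 in the vehicle pools. It was at 1.55 in Pla2g3+/+ with AOM and 2.49 in the AOM pool labeled Pla2g3-/-. The part of these signals in the results was not tested.

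Angiogenin enters cells, cuts transfer RNA and promotes the formation of blood vessels, and several mouse angiogenins, with Ang4 the best known, are released into the gut lumen where they can kill bacteria. In the mouse intestine Ang4 is made by Paneth cells of the small bowel and by goblet cells of the colon. Rnase4 is a ribonuclease that prefers to cut after uridine and is transcribed from the same locus as Ang. Mice have several angiogenin genes where humans have a single one.

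The probes that read each angiogenin are shown first, because near-identical paralogs could share signal. All lay on mouse chromosome 14 (build mm9, as given in the array files), each within the mRNA of its gene. The Ang probe was at chr14:51721338-51721397 on the plus strand, the Ang2 probe at chr14:51815315-51815374 on the minus strand, and the Ang4 probe at chr14:52384066-52384125 on the minus strand. The probe named Ang3, a further angiogenin outside the group, was at chr14:44540232-44540291 on the plus strand. Each sequence is written 5′ to 3′, and capitals mark the 25 bases over which the Ang and Ang2 probes align.
Ang: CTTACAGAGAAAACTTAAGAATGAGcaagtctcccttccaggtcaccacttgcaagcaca
Ang2: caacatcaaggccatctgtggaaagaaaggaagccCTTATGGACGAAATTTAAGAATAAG
Ang4: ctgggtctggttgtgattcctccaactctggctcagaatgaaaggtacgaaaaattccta
Ang3: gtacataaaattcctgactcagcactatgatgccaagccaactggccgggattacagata
The aligned stretch of Ang and Ang2 matched at 19 of 25 bases, and its longest unbroken shared run was 8 bases. No other pair of members exceeded 50% identity over its best overlap of at least 20 bases. Outside the members, the Ang4 probe shared a run of 9 bases with the Ang3 probe shown. None of the 4 member probes shared a run of 14 or more bases with any other probe on the array. These comparisons are between probes, which start at different places in their transcripts. They cannot show whether a probe binds RNA of another angiogenin, and such binding was not tested. The Rnase4 probe, whose sequence is not shown, was at chr14:51725036-51725095 on the plus strand, next to that of Ang.

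RefSeq promoters (GRCm38.p6) were found for 3 of the 4 members, Ang2 having no entry in the table used. They are shown because Ang and Rnase4 start at the same base and yet gave different AOM ratios. The 250 bases before that shared start, chr14:51090827-51091076 on the plus strand, precede both genes. Ang4 has its own start, and the 250 bases before it are chr14:51773591-51773840 on the minus strand. Capitals mark the 1 match found to the motifs searched.
Ang and Rnase4: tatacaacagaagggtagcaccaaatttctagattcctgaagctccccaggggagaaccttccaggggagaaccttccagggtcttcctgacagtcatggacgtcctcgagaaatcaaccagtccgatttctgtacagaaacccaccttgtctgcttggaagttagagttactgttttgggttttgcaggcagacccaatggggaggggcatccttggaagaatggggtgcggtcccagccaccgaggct
Ang4: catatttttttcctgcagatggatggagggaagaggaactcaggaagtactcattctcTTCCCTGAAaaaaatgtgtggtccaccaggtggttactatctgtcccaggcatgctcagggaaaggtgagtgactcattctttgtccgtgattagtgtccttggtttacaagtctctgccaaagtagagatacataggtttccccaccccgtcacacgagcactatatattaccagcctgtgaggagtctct
The motifs, searched on both strands, were TATAAA (the TATA box), CAAAGTCCA (a form of the HNF4 site), AGATAAG (a form of the GATA site), and the STAT factor motif TTCNNNGAA, also in its form with a spacer longer by 1 base. The match was TTCNNNGAA at 192 to 184 bases before the Ang4 start, a motif present in 7.02% of 32851 promoter windows of the same length. TATAAA was present in 12.4% of them, the longer STAT form in 5.85%, AGATAAG in 2.74% and CAAAGTCCA in 0.384%. Rnase4 has a second start, whose 250 bases, chr14:51095750-51095999 on the plus strand, held no match. The Ang4 promoter matched those of Ang5 and Ang6, which are identical to each other, at 208 of 233 aligned bases, and the Ang promoter at 127 of 220. A match describes letters in a window and was not tested as a binding site.

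Values below are the deposited intensity of the probe divided by the 75th percentile of the intensities of its array, called the scaled signal, and a log2 ratio is the difference of their log2 values between 2 arrays. All 4 member probes were well above background on all 4 arrays and none was saturated. The 75th percentile was 646 and 649.8 intensity units in the vehicle pools and 1309 and 1169 in the AOM pools. The scanner software gave an error of about 10% for each member spot, or 0.20 on the log2 scale for a ratio of Ang between the AOM and vehicle pools. Repeated spots of one probe had a median SD of 0.057 to 0.066 log2 units. These errors cover the array alone and not the spread between mice.

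Ang4, the antimicrobial angiogenin of the gut, had a scaled signal of 131 in Pla2g3+/+ with vehicle, 107 in the vehicle pool labeled Pla2g3-/-, 4.60 in Pla2g3+/+ with AOM and 0.468 in the AOM pool labeled Pla2g3-/-. Both vehicle pools were high, both AOM pools were low, and the AOM pool labeled Pla2g3-/- was the lowest. Ang, the counterpart of human angiogenin, had a scaled signal of 32.0, 24.9, 0.939 and 0.204 in the same order of pools. Ang2, a close relative of Ang, had a scaled signal of 32.0, 24.9, 0.836 and 0.0826. The order of the 4 pools was thus the same for these 3 probes. Rnase4 had a scaled signal of 7.37, 6.05, 2.50 and 3.12, and its lowest pool was Pla2g3+/+ with AOM. The highest pool exceeded the lowest by 388-fold for Ang2, 281-fold for Ang4, 157-fold for Ang and 2.95-fold for Rnase4. Levels of different probes are not compared here, since probes differ in brightness for the same amount of RNA.

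**Figure D1:**
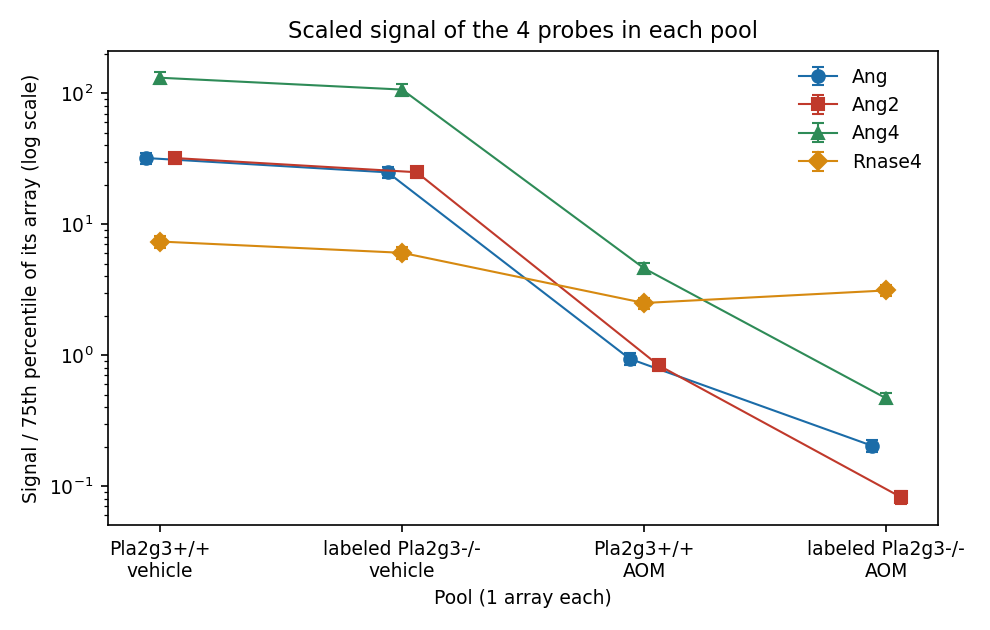
Scaled signal (intensity over the 75th percentile of its array, log axis) of the Ang, Ang2, Ang4 and Rnase4 probes in each of the 4 pools, 1 array each; bars are the error given by the scanner software, and points of Ang and Ang2 are set slightly apart sideways. Ang, Ang2 and Ang4 drop from 32.0, 32.0 and 131 to 0.204, 0.0826 and 0.468, while Rnase4 stays between 2.50 and 7.37.

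AOM was compared with vehicle in each genotype. In Pla2g3+/+, all 4 probes were lower by more than 2-fold, against 21.6% of 28704 probes that were lower and 14.7% that were higher by that much, and since this comparison served to pick the group nothing is read from the count. Ang2 was 38.3-fold lower (log2 ratio -5.26), Ang 34.1-fold (-5.09) and Ang4 28.5-fold (-4.84). Rnase4 was 2.95-fold lower (-1.56), and without scaling between arrays it was at -0.54, within 2-fold, which left 3 probes past the threshold. Of all probes with a ratio, 114 were further down than Ang2, 131 than Ang, 163 than Ang4 and 2970 than Rnase4.

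In the pools labeled Pla2g3-/-, 3 of the 4 probes were lower by more than 2-fold with AOM, against 15.2% of 27567 probes lower and 10.9% higher. Ang2 was 302-fold lower (log2 ratio -8.24), with 5 probes further down on the whole array. Ang4 was 228-fold lower (-7.83) and Ang 122-fold (-6.93), with 11 and 21 probes further down. Rnase4 was 1.94-fold lower (-0.95), within the threshold by little, and centred on colonocyte genes it was at -1.56, past it. The vehicle pool of this comparison is the one with the pancreatic acinar signal.

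**Figure D2:**
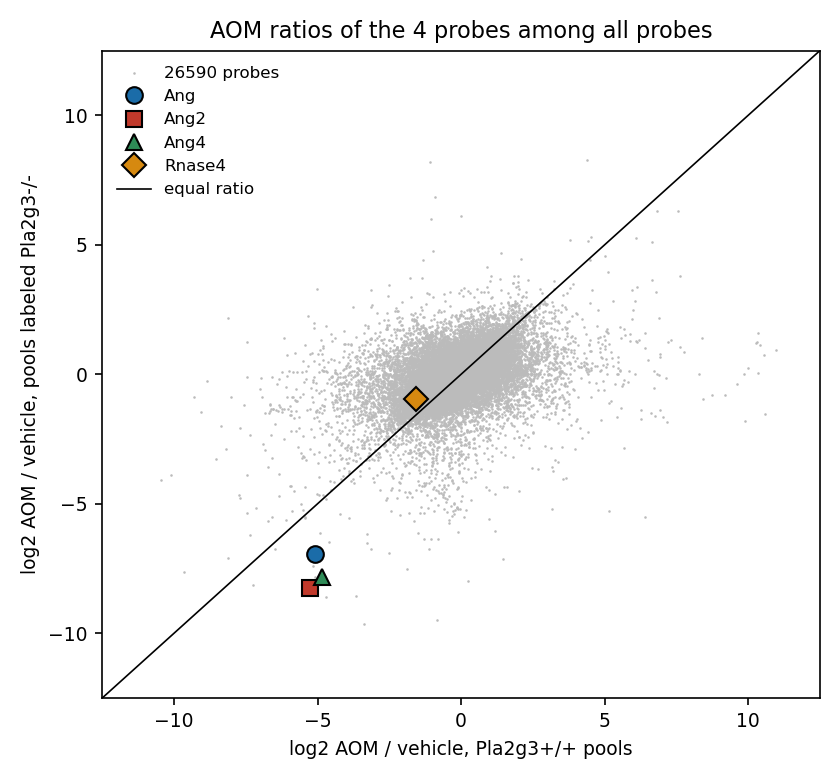
Log2 AOM over vehicle ratio in the Pla2g3+/+ pools (horizontal) against the same ratio in the pools labeled Pla2g3-/- (vertical) for 26590 probes with a ratio in both (grey) and the 4 ribonuclease probes (colored). Ang, Ang2 and Ang4 lie below the line of equal ratios, at -6.93, -8.24 and -7.83 on the vertical axis, and Rnase4 lies within the cloud of all probes at -1.56 and -0.95.

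The effect of AOM differed in size between the genotypes as labeled. On the log2 scale the AOM ratio in the pools labeled Pla2g3-/- minus that in Pla2g3+/+ was -2.98 for Ang2 and -1.84 for Ang, whereas it was 0.60 for Rnase4. The AOM ratio was thus 7.89-fold deeper for Ang2 and 3.58-fold deeper for Ang, and it was 7.98-fold deeper for Ang4. Ang4 and Ang2 gave similar ratios in this scaling, the ratio of Ang2 minus that of Ang4 being -0.42 and -0.41 log2 units in the 2 AOM comparisons. Their likeness depended on the processing. Quantile normalization gave -4.97 for Ang2 and -4.21 for Ang4 in Pla2g3+/+. Normexp with quantile normalization gave -6.48 and -7.07 in the pools labeled Pla2g3-/-, with Ang4 the lower. Ang departed from Ang2 mainly in the AOM pool labeled Pla2g3-/-, where its ratio to vehicle was higher by 1.31 log2 units. There Ang2 was dim, at 96.5 intensity units, and normexp with quantile normalization gave a smaller gap, -5.80 for Ang against -6.48 for Ang2. These differences were not tested.

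The genotypes were then compared within each treatment. With vehicle, none of the 4 probes passed 2-fold in either direction, against 1.5% of 27069 probes lower and 2.08% higher by that much. All 4 were slightly lower in the pool labeled Pla2g3-/-, with log2 ratios of -0.36 for Ang, -0.36 for Ang2, -0.30 for Ang4 and -0.29 for Rnase4, that is 1.22-fold to 1.29-fold. The median of all probes in that comparison was -0.03. When the arrays were centred on 10 colonocyte genes instead of the 75th percentile, Ang4 was at 0.06, Rnase4 at 0.07, Ang at -0.0065 and Ang2 at -0.0027, so these small differences depended on the scaling.

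After AOM, 3 of the 4 probes were more than 2-fold below Pla2g3+/+ in the pool labeled Pla2g3-/-, against 12.1% of 28438 probes lower and 14% higher. Ang2 was 10.1-fold lower (log2 ratio -3.34), Ang4 9.83-fold (-3.30) and Ang 4.61-fold (-2.20). Centred on colonocyte genes the log2 ratios were -5.99, -5.94 and -4.85, and normexp gave Ang2 -2.14. Rnase4 was 1.25-fold higher (0.32), within the threshold, but at -2.33 centred on colonocyte genes. This comparison shares both AOM arrays with the ones above, so its values restate the difference between the AOM ratios together with that between the vehicle pools.

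**Figure D3:**
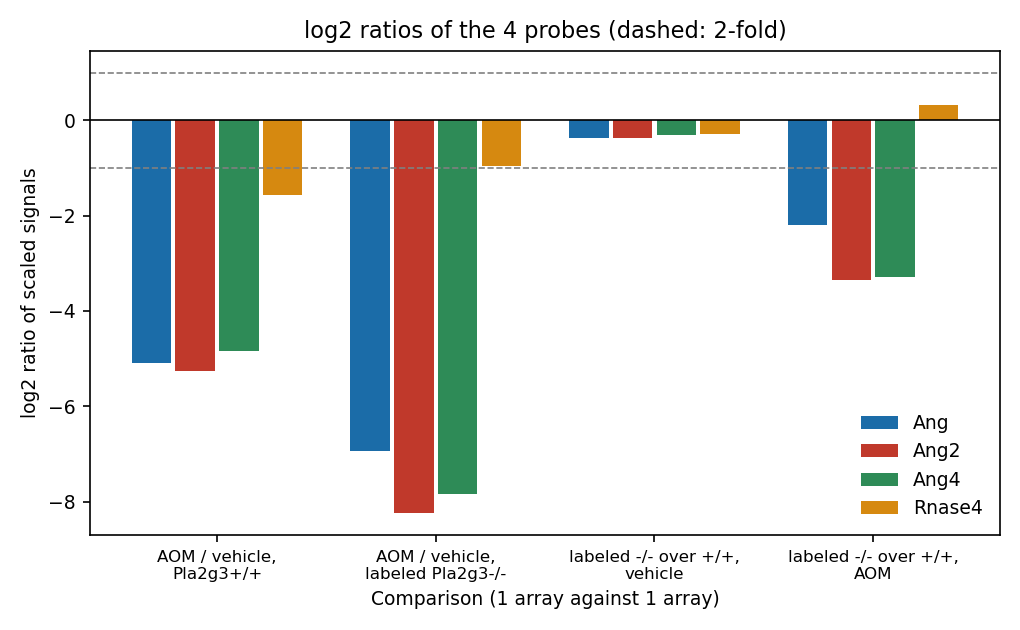
Log2 ratios of the 4 ribonuclease probes in the 4 comparisons, each of 1 array against 1 array; dashed lines mark 2-fold. Ang, Ang2 and Ang4 pass 2-fold downward in both AOM comparisons and in the genotype comparison after AOM, and with vehicle all 4 bars lie between -0.36 and -0.29.

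Other genes of the ribonuclease A superfamily were taken from a list of 23 names, which 17 probes read at the brightest per gene. Besides the members, 2 probes named Ang3 carried the same pattern. The first had log2 ratios of -5.08 and -7.85 with AOM in Pla2g3+/+ and in the pools labeled Pla2g3-/-, and the second -4.72 and -8.62. After AOM the pool labeled Pla2g3-/- was 8.65-fold and 17.2-fold lower on them, and with vehicle the log2 ratios were -0.34 and -0.20. The array file also lists transcripts of Ang6 for both and of Ang5 for the second, so these probes cannot be assigned to 1 gene.

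Of the 12 genes of that list with a ratio, 2 were lower and 1 higher by more than 2-fold with AOM in Pla2g3+/+. Of all probes, 21.6% were lower and 14.7% higher there. In the pools labeled Pla2g3-/-, 4 of 12 were lower and 0 higher, beside 15.2% and 10.9% of all probes. Ang3 was among the lower genes in both. Rnase1, the pancreatic-type ribonuclease, moved the other way from the angiogenins in Pla2g3+/+, from a scaled signal of 0.0303 with vehicle to 0.475 with AOM, a log2 ratio of 3.97. In the pools labeled Pla2g3-/- it was at 0.110 with vehicle and not well above background with AOM, at least 7.49-fold lower. Rnase12 was not well above background in either AOM pool, at least 4.54-fold lower in Pla2g3+/+ and at least 3.43-fold lower in the pools labeled Pla2g3-/-. Rnase6, a ribonuclease of myeloid cells, had a log2 ratio of -0.38 in Pla2g3+/+ and was at least 4.10-fold lower in the pools labeled Pla2g3-/-. The eosinophil-associated ribonucleases Ear1, Ear2, Ear6, Ear10, Ear12 and Rnase2a, with Rnase10, stayed within 2-fold in all 4 comparisons. Their probes were dim, with scaled signals from 0.0391 for Ear6 to 0.360 for Ear2, and signal shared between these related genes was not examined. Rnase13 passed 2-fold in 1 comparison, with a log2 ratio of at least 1.04 between the vehicle pools.

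The probes between those of Ang and Ang4 on chromosome 14 span 662788 bases and include 26 that are not members. In Pla2g3+/+, 11 of them had an AOM ratio, with 3 lower and 3 higher by more than 2-fold. Of all probes, 21.6% were lower and 14.7% higher in that comparison. For the pools labeled Pla2g3-/-, 7 had one, with 4 lower and 1 higher, beside 15.2% and 10.9% of all probes. These neighbors include the Rnase1, Rnase6 and Rnase2a probes described above, some ratios are bounds, and nothing is read from counts this small. Rnase4, the nearest neighbor of Ang on the array's map, had an AOM ratio 11.6-fold above that of Ang in Pla2g3+/+ and 63.0-fold above it in the pools labeled Pla2g3-/-.

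Genes on which angiogenin acts or which restrain it changed by less than 2-fold. Rnh1, the inhibitor that binds angiogenin in the cytosol, had log2 AOM ratios of 0.13 in Pla2g3+/+ and -0.38 in the pools labeled Pla2g3-/-. Plxnb2, a receptor for angiogenin, had 0.03 and 0.87. Trdmt1 and Nsun2, which methylate transfer RNA and protect it from cutting, had 0.15 and 0.65 in Pla2g3+/+ and -0.02 and -0.03 in the pools labeled Pla2g3-/-. After AOM, the pool labeled Pla2g3-/- over Pla2g3+/+ gave 0.88 for Plxnb2, -0.67 for Nsun2, -0.49 for Rnh1 and -0.28 for Trdmt1. None of these 4 genes passed 2-fold in any of the 4 comparisons.

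Marker genes of the cells known to make angiogenins were set beside the members. All 10 goblet cell genes were lower by more than 2-fold with AOM in Pla2g3+/+, with a median log2 ratio of -3.36, beside -0.17 for all probes. With AOM in the pools labeled Pla2g3-/-, 7 of 10 were lower with a median of -1.30, beside -0.04 for all probes. Their summed scaled signal was 1751 and 1640 in the vehicle pools, 125 in Pla2g3+/+ with AOM and 597 in the AOM pool labeled Pla2g3-/-. The goblet cell genes were thus higher in the AOM pool labeled Pla2g3-/- than in Pla2g3+/+ with AOM, 8 of 10 by more than 2-fold with a median of 2.06, whereas Ang, Ang2 and Ang4 were lower there. The gel-forming mucin Muc2 had log2 AOM ratios of -2.92 and -0.38, and Zg16, a lectin-like goblet cell protein, had -4.47 and -1.27. Retnlb, a resistin-like protein of goblet cells, was the 1 gene of the list below -3 in both, at -7.26 and -8.13.

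Centring the arrays on the 10 goblet cell genes, an alternative chosen after seeing the data, gave log2 AOM ratios in Pla2g3+/+ of -1.20 for Ang, -1.37 for Ang2 and -0.94 for Ang4, and of 2.33 for Rnase4. In the pools labeled Pla2g3-/- the same centring gave -5.68 for Ang, -6.99 for Ang2 and -6.58 for Ang4. In this scaling the median of all probes shifted by 3.88 and 1.20 log2 units in the 2 comparisons.

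Colonocyte and smooth muscle genes showed a similar contrast between the pools. With AOM in Pla2g3+/+, 9 of 10 colonocyte genes and 8 of 8 smooth muscle genes were lower by more than 2-fold, with medians of -3.58 and -4.28. In the pools labeled Pla2g3-/- these counts were 4 and 0, with medians of -0.85 and -0.10. Summed scaled signals of the smooth muscle genes were 510 and 536 in the vehicle pools, 31.1 in Pla2g3+/+ with AOM and 488 in the AOM pool labeled Pla2g3-/-. The AOM pool labeled Pla2g3-/- therefore carried smooth muscle signal near that of the vehicle pools while its Ang, Ang2 and Ang4 were at their lowest. The part of cell make-up in the members' ratios was not tested.

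**Figure D4:**
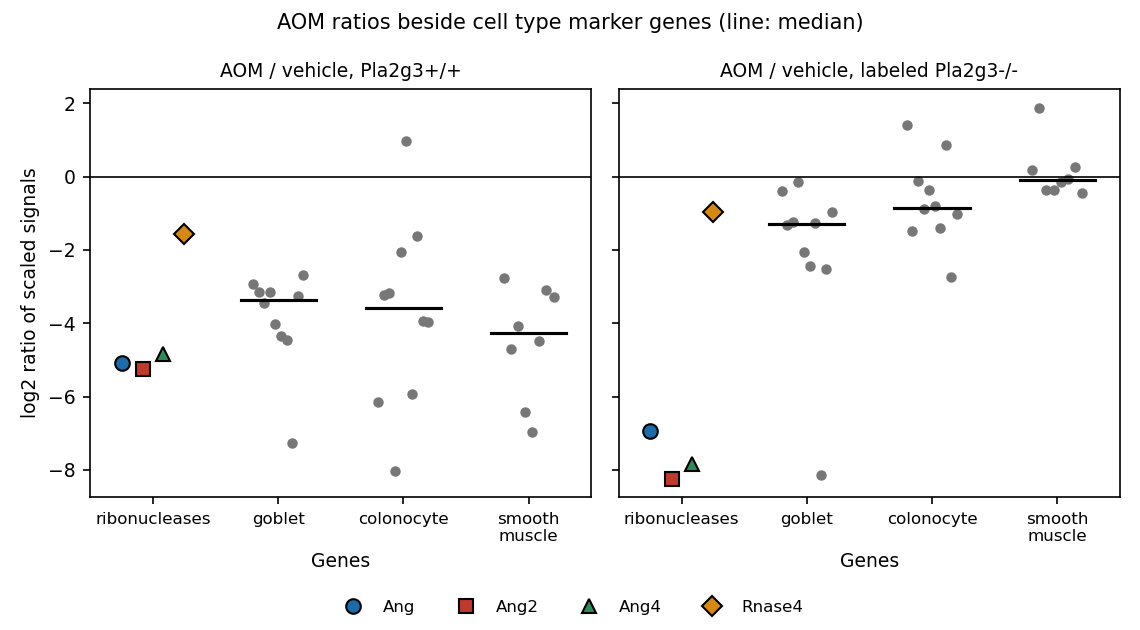
Log2 AOM over vehicle ratios of the 4 ribonuclease probes (colored) and of marker genes for goblet cells, colonocytes and smooth muscle (grey points; line, median), in Pla2g3+/+ (left) and in the pools labeled Pla2g3-/- (right). The marker medians move from -3.36, -3.58 and -4.28 to -1.30, -0.85 and -0.10, while Ang, Ang2 and Ang4 move from between -5.26 and -4.84 to between -8.24 and -6.93.

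Paneth cell genes mark the small-bowel source of Ang4. Of 8 names, 5 had a probe, and with AOM in Pla2g3+/+ 4 of these were higher by more than 2-fold. The metalloproteinase Mmp7 had a log2 ratio of 5.16 and Lyz1, Paneth cell lysozyme, 1.74. Their defensins Defa21 and Defa26 were well above background in Pla2g3+/+ with AOM and in no other pool. With AOM in the pools labeled Pla2g3-/-, 3 of 3 with a ratio were lower, Lyz1 at -1.16, Itln1 at -5.17 and Mmp7 at most -5.30. In the AOM pool labeled Pla2g3-/-, all 5 were lower than in Pla2g3+/+ with AOM by more than 2-fold.

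Other antimicrobial proteins of the epithelium had mixed ratios. Of 10 such genes, 5 were lower and 3 higher with AOM in Pla2g3+/+, and 5 lower and 0 higher in the pools labeled Pla2g3-/-. There, the lectins Reg3b and Reg3g had log2 ratios of -9.66 and -9.51, Retnlb -8.13 and Itln1, an intelectin, -5.17. Their values in Pla2g3+/+ were -3.37, -0.84, -7.26 and -0.13. Zg16 was the other lower gene in the pools labeled Pla2g3-/-, at -1.27. In the same pools 5 genes stayed within 2-fold: Lypd8 at 0.03, Wfdc2 at 0.05, Slpi at 0.83, Lcn2 at 0.84 and Pla2g2a at -0.86. In Pla2g3+/+ Lypd8 and Wfdc2 were at -1.98 and -1.45, and Slpi, Lcn2 and Pla2g2a were higher, at 1.85, 4.84 and 4.53. Reg3b and Reg3g were also higher in the vehicle pool labeled Pla2g3-/- than in Pla2g3+/+ with vehicle, by 3.28 and 3.78 log2 units, while Ang4 was not. That vehicle pool, also the denominator of their AOM ratios of -9.66 and -9.51, is the one with the pancreatic acinar signal. The part of that signal in these values was not tested. Of 9 genes of the type 2 cytokine axis known to act on goblet cells, 5 had an AOM ratio in each genotype. By more than 2-fold, 2 were higher and 0 lower in Pla2g3+/+, and 1 was higher and 1 lower in the pools labeled Pla2g3-/-. Il33, an epithelial alarm cytokine, had log2 ratios of 2.62 in Pla2g3+/+ and 1.60 in the pools labeled Pla2g3-/-. In the same order Il4ra had 1.63 and -0.64, Il13ra1 -0.91 and 0.16, and Stat6 0.47 and 0.47. Il13 was not well above background in 3 of the 4 pools.

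Genes whose pattern over the 4 pools was most like each member were found among 14832 genes by the distance between log2 values centred on their mean. The members were nearest to each other for Ang2 and Ang4, at a distance of 0.418, nearer than any of the 14832 genes. Ang was at 1.09 from Ang2 and 0.838 from Ang4. Among genes other than the members, the nearest to both was Ang3, at 0.556 from Ang2 and 0.663 from Ang4, then Nts, the gut hormone neurotensin, at 1.36 and 1.25. Prap1, a proline-rich protein of the gut epithelium, followed at 1.69 and 1.39, and Gzma, a granzyme of cytotoxic lymphocytes, was at 1.95 and 1.54. Retnlb, at 1.92, completed the 5 genes nearest to Ang2, and Ugt2b38, a glucuronosyltransferase, at 2.01 those nearest to Ang4. Members aside, Ang was closest to Prap1, at 0.681, then to Ugt2b38 at 1.25, Gzma at 1.31 and the chemokine Ccl5 at 1.37, with Ang3 as the fifth. Rnase4 lay 5.08 from Ang. Of the 14832 genes, 1054 were nearer to Ang than Rnase4 was, and 14759 were nearer to Rnase4 than Ang was. The 5 genes nearest to Rnase4 were 0610012G03Rik, Dand5, Pou2f2, Scgb1a1 and 1110019D14Rik, at distances up to 0.093. These distances rest on 4 pools and describe them only.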

How the data were processed

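Agilent Feature Extraction 11.5.1.1 made the deposited intensity of each spot, which per the file headers had its background removed and was detrended, with no scaling between arrays. The deposited table holds a ratio, the authors' intensity over the 75th percentile of its array, and was equal to the value computed here within 0.0181%. Control spots and outlier spots were left out, and log2 intensities of repeated spots were averaged. Each array was then centred on the log2 of its 75th percentile. Spots well above background made up 64.8% to 69.4% of 43020 per array. A probe not well above background on 1 array gave a bound, against the dimmest probe well above background there, and on both arrays no ratio. Through a RefSeq table, 31430 probes were named, and a gene of a list was read by its brightest probe. Each member has 1 probe with 1 spot.

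Groups came from the sample labels. The threshold was 2-fold. The members and all lists were chosen with earlier results of these data known. Named were all member probes, detected ribonuclease A genes, Rnh1, Plxnb2, Trdmt1 and Nsun2, genes of the lists, chosen for brightness (Muc2, Mmp7, Reg3b, Reg3g, Lcn2, Slpi, Pla2g2a, Il33, Il13, Defa21, Krt5, Krt14, Sprr1a, Alb, Pnliprp1, Lgr5, Wif1, Kdr and Lyz2 were named after their values were seen), and the 5 genes nearest to each member. Normexp with an offset of 50 and quantile normalization used limma 3.58.1 in R 4.3.3. The code was tested on simulated data.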

Additional observations from a re-analysis of the deposited data

Results flagged for a closer look

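The ratios below had opposite signs in 2 comparisons of the same contrast, and each difference was not tested. Rnase4 had a genotype log2 ratio, pool labeled Pla2g3-/- over Pla2g3+/+, of -0.29 with vehicle and 0.32 after AOM, both within 2-fold. Rnase1 had a genotype log2 ratio of 1.86 with vehicle and at most -5.02 after AOM, and its AOM log2 ratio was 3.97 in Pla2g3+/+ and at most -2.91 in the pools labeled Pla2g3-/-. Its scaled signal was highest in Pla2g3+/+ with AOM, at 0.475, where 9 of 12 pancreatic acinar genes were not well above background. Mmp7 had AOM log2 ratios of 5.16 in Pla2g3+/+ and at most -5.30 in the pools labeled Pla2g3-/-, and Lyz1 of 1.74 and -1.16.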

How the results depend on the processing

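Ang, Ang2 and Ang4 kept their direction in both AOM comparisons and in the genotype comparison after AOM under no scaling, the median, quantile, normexp with quantile, and centring on colonocyte or, added after seeing the data, goblet cell genes. Signals as given, only probes well above background, a floor and the deposited table gave the same member values by construction, since all members are well above background and the table holds the same scaling. In the genotype comparison after AOM, Ang, Ang2 and Ang4 ranged from -1.57, -2.14 and -3.16 with normexp to -4.85, -5.99 and -5.94 centred on colonocyte genes, where 4 of 4 were lower, as with goblet cell genes. Normexp gave Ang2 -6.48 with AOM in the pools labeled Pla2g3-/-. There Rnase4 was at 0.30 centred on goblet cell genes and -1.56 on colonocyte genes, and 4 of 4 were lower with the latter and at 1.5-fold. In Pla2g3+/+, 3 were lower with no scaling (Rnase4 -0.54), at 4-fold and centred on colonocyte genes. Rnase4 with AOM in Pla2g3+/+ reversed to 0.84 centred on colonocyte genes and 2.33 on goblet cell genes, where counts there became 2 lower and 1 higher of 4. By construction that centring takes the lower goblet cell genes as unchanged. Centred on colonocyte genes, the median of all probes moved by 2.38 in that comparison, and Rnase4 after AOM was at -2.33 between genotypes. Averaging a gene's probes was not run, since each member has 1. No paired analysis was possible because each group has 1 array and the labels give no replicate numbers. With 1 pool per group, the spread between mice is unknown, and the scanner's error of about 10% covers the array alone.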

Other observations

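Further gene groups were counted with AOM against vehicle, where 14.7% of all probes were higher and 21.6% lower by more than 2-fold in Pla2g3+/+, and 10.9% higher and 15.2% lower in the pools labeled Pla2g3-/-. Of 10 Wnt target genes of colon tumors, 10 were higher and 0 lower in Pla2g3+/+ (median log2 ratio 3.12). Of the 9 with a ratio in the pools labeled Pla2g3-/-, 1 was higher and 2, Lgr5 and Wif1, were lower (median -0.20). Of 8 endothelial genes, 5 were higher and 0 lower in Pla2g3+/+ (median 1.43), and 2 higher and 1 lower in the pools labeled Pla2g3-/- (median 0.35). Of angiopoietin and other angiogenesis genes, 3 of 7 were higher and 0 lower in Pla2g3+/+, and 2 of 6 higher and 1, Kdr, lower in the pools labeled Pla2g3-/-. Of 6 macrophage genes, 5 were higher and 0 lower in Pla2g3+/+ (median 1.21), and 1 was higher and 1, Lyz2, lower in the pools labeled Pla2g3-/- (median -0.40).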
